A study of Mus musculus with 2 samples.

Results

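The integrin chain genes Itgal, Itgam, Itgax, Itgad, Itgb2, Itgae, Itgav, Itgb5, Itgb8 and Itga9 were followed across the cell classes of the mouse spleen. These 10 genes were chosen by name, as integrin chains other than those of the main VCAM1 receptor, from the 27 integrin chain genes and the 27032 genes counted. The data were single-cell transcriptomes from 2 samples of 1 group, wild-type mice on a C57BL/6J background, adult and of both sexes by the methods, with no treatment (WT1, replicate 1, and WT2, replicate 2). Spleen cells were enriched on magnetic beads against CD11c, which is the product of Itgax, so the selection itself acted on 1 of the 10 chains. The sources do not say from how many mice a sample came, and the p-values below measure only the spread between these 2 samples.

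Integrins are pairs of an α and a β chain that hold cells to other cells and to matrix. A resting integrin is bent; signals inside the cell, through talin and kindlin on the β tail, straighten it and raise its affinity. The β2 chain (Itgb2, CD18) pairs in leukocytes with αL (Itgal, CD11a, which binds ICAMs), αM (Itgam, CD11b, which binds complement fragments), αX (Itgax, CD11c) and αD (Itgad, CD11d). The αE chain (Itgae, CD103) pairs with β7 and binds E-cadherin, the αv chain (Itgav) pairs with β5 or β8 among others, αvβ8 activates latent TGF-β, and α9 (Itga9) pairs with β1 and binds tenascin C and also VCAM1.

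The α chains share a short stretch just inside the membrane, a glycine and a pair of phenylalanines followed by basic residues, which clasps the β tail in the resting state. Its codons are printed for the 7 α chains because they mark the genes as one family and show how far their RNAs can be told apart. Each window holds 27 coding bases, 5′ to 3′, from the longest reading frame with this stretch in the GENCODE vM21 transcripts (GRCm38), and capitals mark the 15 bases of its 5 codons.
Itgal: aaggttGGCTTCTTCAAACGGaacctg
Itgam: aagcttGGCTTTTTCAAGCGGcagtac
Itgax: aaggctGGTTTCTTCAAACGTcagtac
Itgad: aagcttGGCTTCTTCAAACGTcagtat
Itgae: aagtgtGGCTTTTTCAAAAGAaaatat
Itgav: aggatgGGCTTTTTCAAACGTgtccga
Itga9: aagatgGGCTTCTTCCGCAGAaggtac
Against the Itgax window, Itgad matched at 23 of 27 bases, Itgam at 21 and Itgal at 19, while Itgae matched at 18, Itga9 at 16 and Itgav at 15. Across whole transcripts, runs of 31 bases were shared by 1 of the 45 pairs of members, Itgax and Itgad. Of the 4016 such runs in the Itgax transcript, 512 (12.7%) also occurred in Itgad, and the last of them ended 670 bases before the 3′ end. The sources do not state how the pipeline assigned reads from these runs, so the Itgax and Itgad values may hold some of each other's reads.

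The 4 α chains of β2 lie on chromosome 7 (GRCm38, GENCODE vM21, forward strand). Itgal spans 127296260 to 127335138, Itgam 128062640 to 128118491, Itgax 128129547 to 128150657 and Itgad 128154376 to 128223816. Only 11.1 kb separate the models of Itgam and Itgax, and 3.72 kb those of Itgax and Itgad. The model of Itgad overlaps 5 others, among them Cox6a2 on the reverse strand, a gene known from pDCs, and the sources do not state whether counting used strand. The other members lie apart: Itgb2 on chromosome 10 (77530252 to 77565708), Itgae on chromosome 11 (73090583 to 73147446), Itgav on chromosome 2 (83724397 to 83806916), Itgb5 on chromosome 16 (33829665 to 33949338), Itgb8 on chromosome 12 (119158022 to 119238802, reverse strand) and Itga9 on chromosome 9 (118606690 to 118901003).

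The 250 bases before the RefSeq starts of Itgam and Itgax (GRCm38.p6, forward strand) are shown because these neighbours differed in level between cDC1s and cDC2s, as given below. Capitals mark GAGGAA on either strand, a core sequence known to bind the myeloid factor PU.1. The Itgam window is chr7:128062390-128062639 and the Itgax window chr7:128129300-128129549.
Itgam: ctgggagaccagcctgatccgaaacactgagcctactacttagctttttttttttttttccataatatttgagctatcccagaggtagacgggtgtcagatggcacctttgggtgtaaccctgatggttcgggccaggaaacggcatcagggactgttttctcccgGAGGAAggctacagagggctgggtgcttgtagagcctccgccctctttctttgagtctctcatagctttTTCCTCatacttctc
Itgax: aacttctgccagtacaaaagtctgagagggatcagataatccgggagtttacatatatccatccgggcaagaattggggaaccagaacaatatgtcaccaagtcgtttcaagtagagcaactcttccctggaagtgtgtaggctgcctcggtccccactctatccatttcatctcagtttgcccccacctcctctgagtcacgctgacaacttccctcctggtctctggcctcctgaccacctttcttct
The Itgam window held 2 matches and the Itgax window 0. Of 32851 promoter windows of this length, 7639 (23.3%) held the motif, so a match was common. Of the 10 members, 6 had a promoter in the RefSeq table, and 2 of these, Itgam and Itgav, held it.

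Cells were put into 9 classes by UMIs, which are counts of captured RNA molecules, and a cell took the first class it met. The minimums were Vcam1 20 and C1qb 5 for macrophages, Ccr7 2 and Fscn1 1 for mature DCs, Clec9a 2 and Xcr1 1 for cDC1s, Siglech 3 and Ccr9 1 for pDCs, Cd79a 3 for B cells, Cd3e 2 for T cells, Ncr1 1 for NK cells, Clec4a4 2 for DCIR2 cDC2s, and Clec10a with Cd209a 2 for CLEC10A cDC2s. Of 6393 cells, 4922 (77.0%) met a class. The classes held 358 and 161 macrophages in replicates 1 and 2, 147 and 187 mature DCs, 797 and 710 cDC1s, 565 and 466 DCIR2 cDC2s, 494 and 416 CLEC10A cDC2s, 74 and 201 B cells, 50 and 187 T cells, 39 and 36 NK cells, but only 14 and 20 pDCs. No cell barcode was shared by the samples (0).

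Median depth ran from 5922.5 UMIs in T cells of replicate 1 to 21782.5 in cDC1s of replicate 2. The summed markers of a class that the rule did not use were highest in that class for 7 of the 9 classes. Those of DCIR2 cDC2s were higher in NK cells, and those of CLEC10A cDC2s were higher in macrophages. Macrophages also carried erythroid transcripts, with a sum over 5 genes of 2598 and 2020 CPM (counts per 1e6 UMIs), and so, less, did NK cells (499 and 448), and 10 of 14 and 13 of 20 pDCs met the rule of a further class. In NK cells of replicate 1 the CLEC10A cDC2 markers summed to 1889 CPM, against 1911 in CLEC10A cDC2s of that sample. The part of these in the results was not tested. Levels below are CPM of the class.

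**Figure D1:**
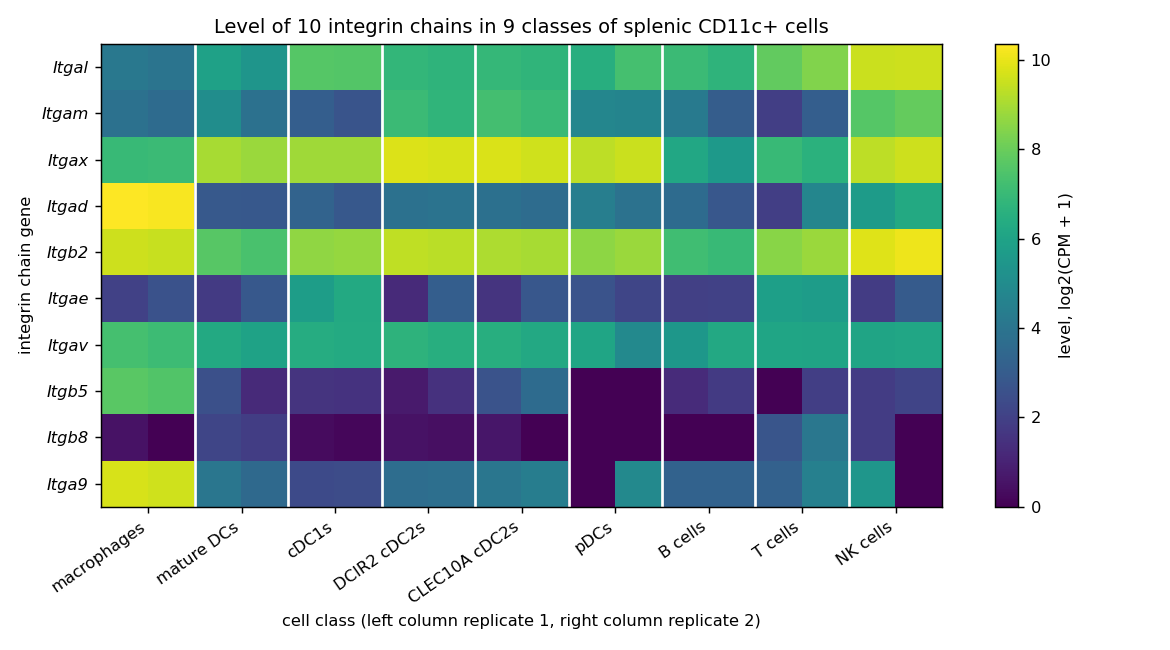
Levels of the 10 integrin chains, as log2(CPM + 1) on the colour scale, in 9 classes (columns in pairs, replicate 1 left and replicate 2 right). Itgad, Itgb5 and Itga9 were highest in macrophages in both samples, Itgae in cDC1s and T cells, and Itgal in NK cells.

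The common β2 chain was present in every class. Itgb2 stood at 933 and 1090 CPM in NK cells, 753 and 707 in macrophages and 649 and 624 in DCIR2 cDC2s. The lowest class was B cells, with 143 and 123 CPM, next to mature DCs with 204 and 165. The lowest and highest classes thus differed 7.59-fold, and the order from NK cells down to CLEC10A cDC2s (520 ± 20.4, mean ± SD, n = 2) had no overlap of sample values between neighbours, while pDCs, cDC1s and T cells overlapped at mean levels of 412, 409 and 400.4 CPM.

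Of the α chains, Itgal was highest in NK cells, T cells and cDC1s. NK cells held 728 and 757 CPM, T cells 229 and 333, and cDC1s 195 and 192. Both cDC2 classes, pDCs and B cells overlapped with their neighbours between 110 and 123 CPM on average. Mature DCs (59.5 and 41.5 CPM) and macrophages (16.5 and 14.6 CPM) were the lowest, each apart from the class above it.

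Itgam separated the cDC classes. It stood at 131 and 109 CPM in DCIR2 cDC2s and at 153 and 127 in CLEC10A cDC2s, against 7.42 and 5.37 in cDC1s. NK cells were higher than both cDC2 classes (197 and 238 CPM), and macrophages were low (13.5 and 11.2 CPM), although CD11b is often used as a myeloid marker. A UMI of Itgam was found in 59.8% and 52.1% of DCIR2 cDC2s but in 5.77% and 6.48% of cDC1s, which were the deeper cells.

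Itgax, the gene of the antigen used for enrichment, ranged from 867 ± 34.6 CPM in DCIR2 cDC2s to 59.5 ± 18.4 in B cells (SD, n = 2). The cDC2 classes overlapped each other, as did NK cells (646 and 764 CPM) with pDCs (634 and 725), and mature DCs (515 and 447) with cDC1s (473 and 463). Macrophages followed with 126 and 131 CPM and T cells with 126 and 98.1. In B cells 23.0% and 16.9% of cells held an Itgax UMI, and in T cells 16.0% and 20.3%, so most lymphocytes of the CD11c+ fraction showed none at this depth. The share of T cells was 8.0% and 9.09% once each cell was thinned to 2000 UMIs, against 80.9% and 82.0% in DCIR2 cDC2s.

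Itgad was the leading β2 partner of macrophages. It stood at 1306 and 1201 CPM there, with a median of 25 UMIs per cell in each sample, and 97.8% and 95.7% of macrophages held a UMI. NK cells came next with 49.9 and 78.1 CPM, from 19 and 23 UMIs, and the other 7 classes lay between 2.79 and 25.7 CPM. In mature DCs, cDC1s and both cDC2 classes, Itgad was 0.496% to 1.19% of the macrophage level, while the median over 10 macrophage markers was 0.192% to 1.23% of theirs. The part of free macrophage RNA in these low values was not tested.

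As a share of the summed UMIs of the 4 α chains, the make-up fell into a few types. Itgad made up 89.3% and 88.4% in macrophages, and Itgax 75.3% to 78.7% in both cDC2 classes, 83.9% and 87.9% in mature DCs and 69.2% and 69.4% in cDC1s. Itgal made up 28.5% and 28.8% in cDC1s against 9.83% to 10.7% in the cDC2 classes. It held the largest share of these UMIs in T cells (63.6% and 71.7%), B cells (56.1% and 63.7%) and, just ahead of Itgax in replicate 1, NK cells (44.9% against 39.9%). In replicate 2 of NK cells Itgax was slightly ahead (41.6% against 41.2%). Dividing each gene by its transcript length, a choice made after seeing the data, left Itgad at 89.5% and 88.6% in macrophages and Itgal at 30.6% and 31% in cDC1s. UMIs count molecules, and intronic reads were counted too, over gene models of 69.4 kb for Itgad and 21.1 kb for Itgax. Division by transcript length cannot settle how capture differs between these genes, so no conclusion is drawn from it. Within a class, the shares of different genes thus compare UMIs, not amounts of the chains.

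**Figure D2:**
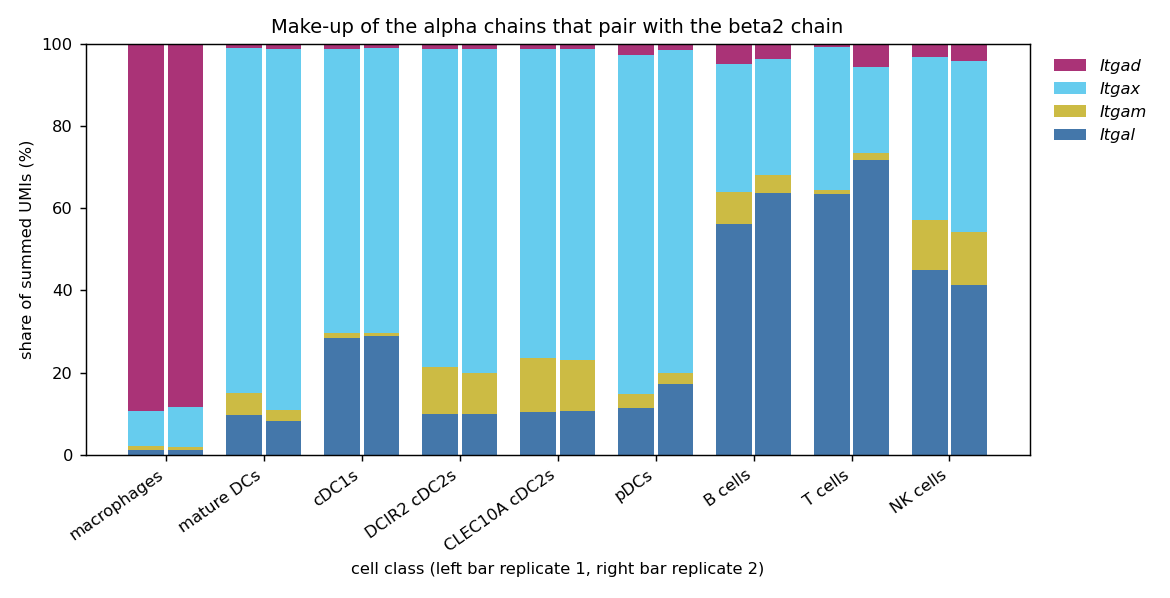
Share in percent of Itgal, Itgam, Itgax and Itgad in their summed UMIs, for each class (left bar replicate 1, right bar replicate 2). Itgad holds 89.3% and 88.4% of these UMIs in macrophages, Itgax holds most of them in the dendritic classes, and Itgal holds most in B and T cells.

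Within macrophages, Itgad and Itgax were found together. Both had a UMI in 67.0% and 70.8% of the cells, and Itgad had more UMIs than Itgax in 96.6% and 91.9%. Because of the shared runs described above, reads of Itgad counted to Itgax cannot be told apart from Itgax RNA here.

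Itgae was restricted among the classes. It stood at 53.5 and 77.8 CPM in cDC1s and 55.9 and 51.5 in T cells, which overlapped, and at 1.36 to 7.61 CPM elsewhere. Replicate 2 was higher in 7 of the 9 classes, among them cDC1s and both cDC2 classes. Of cDC1s, 30.4% (95% exact binomial interval 27.2% to 33.7%) and 43.2% (39.6% to 47.0%) held an Itgae UMI, with up to 25 and 30 UMIs in a cell. Cells with at least 4 UMIs held 68.8% and 74.8% of all Itgae UMIs of cDC1s, although they were 9.28% and 17.7% of the cells. Intervals here cover counting error only. The partner chain β7 (Itgb7) was highest in T cells (268 and 325 CPM), with 127 and 122 in cDC1s and 8.68 and 5.62 in macrophages.

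The αv chain was found in every class, while Itgb5 was high in macrophages alone and Itgb8 was rare. Itgav stood at 155 and 134 CPM in macrophages and between 28.2 and 103 in the other classes, where most neighbours overlapped. Itgb5, whose pair with αv takes part in the uptake of dying cells, stood at 207.5 and 184 CPM in macrophages. CLEC10A cDC2s held 5.22 and 11.4 CPM of it, the other classes at most 4.71, and no UMI was found in pDCs, where 0 counts allow up to 15.6 and 10.6 CPM.

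Itgb8 was rare in all classes. T cells held 5.59 and 16.0 CPM, from 2 and 23 UMIs in 2 of 50 and 8 of 187 cells, with up to 7 UMIs in a cell. Mature DCs held 3.53 and 2.65 CPM, from 6 UMIs in 2 cells in each sample. B cells and pDCs held 0, which allows up to 4.26 and 1.81 CPM in B cells. The remaining classes held at most 4 UMIs in a sample.

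Itga9 stood at 843 and 781 CPM in macrophages, where 98.3% and 100% of cells held a UMI, with a median of 16 UMIs per cell in each sample. Elsewhere it stood between 0 and 42.0 CPM. The value of 42.0 was from NK cells of replicate 1 and came from 16 UMIs, 11 of them in 1 cell, while replicate 2 had 0. Of macrophages, 89.4% and 87.0% held UMIs of Itgad, Itga9 and Itgb5 together.

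To ask which chains set the classes apart, UMIs were summed per sample and class and compared with edgeR's quasi-likelihood test over all genes, at an adjusted p under 0.05. Folds are on the log2 scale. Their standard errors were derived from the test, as the absolute fold over the square root of its F statistic. The mean of the 3 cDC classes, averaged as coefficients on the log scale, was the base for the other 6 classes. Those 6 comparisons share the cDC sums, and a mean of classes that differ from each other, as they do for Itgam and Itgae, is not the level of any of them.

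Between cDC1s and DCIR2 cDC2s, cDC1s had more Itgae and Itgal and less Itgam, Itga9, Itgax, Itgad and Itgb2. The comparison called 7 of 10 members, where 33.3% of all 12216 genes tested were called, and the median difference was −0.59 over members and 0.00 over all genes. The log2 fold change was 4.10 ± 0.41 for Itgae (adjusted p = 1.22e-07), −4.05 ± 0.25 for Itgam (adjusted p = 1.19e-10) and 0.99 ± 0.16 for Itgal (adjusted p = 7.25e-05). The fold of Itgae rests on few UMIs in DCIR2 cDC2s, and was 3.27 without their library of replicate 1 and 5.75 without that of replicate 2. Itga9 fell by 1.42 ± 0.32 and Itgax by 0.72 ± 0.13 on this scale, with adjusted p of 0.00168 and 0.000197. Itga9 was low in both classes, at 0.468% and 0.546% of the macrophage level in cDC1s and 1.43% and 1.64% in DCIR2 cDC2s. The part of macrophage RNA in its difference was not tested. The smallest differences, −0.71 ± 0.23 for Itgad (adjusted p = 0.0221) and −0.47 ± 0.12 for Itgb2 (adjusted p = 0.00605), lost the call when single libraries were left out. Itgad lost it without either DCIR2 library or the cDC1 library of replicate 2 (adjusted p 0.0939 to 0.24) and with cells within 3 median absolute deviations (0.0545), and Itgb2 without the replicate 1 library of cDC1s or DCIR2 cDC2s (0.0835 and 0.0591).

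Against CLEC10A cDC2s, cDC1s again had more Itgae (4.20 ± 0.44, adjusted p = 2.34e-07) and Itgal (0.88 ± 0.16, adjusted p = 0.000322). They had less Itgam (−4.33 ± 0.25, adjusted p = 6.9e-11), Itga9 (−2.00 ± 0.32, adjusted p = 5.25e-05), Itgb5 (−1.99 ± 0.36, adjusted p = 0.000268) and Itgax (−0.70 ± 0.13, adjusted p = 0.000302). These 6 of 10 members stood against 30.7% of all genes called. Itgb5 passed the filter on low counts, about 5.05 CPM, only through the sums of macrophages and CLEC10A cDC2s. Its call here is thus not independent of the filter, and its levels above are a description. Without the CLEC10A library of replicate 1 the Itgae difference was 3.58, and without that of replicate 2 it was 5.16, with Itgb5 at −1.33. The 2 comparisons share the cDC1 sums. Itgb2 differed by −0.23 ± 0.12 here (adjusted p = 0.173), and its difference between the comparisons is the one between the cDC2 classes. Itgb2 was called as lower with these classes fitted alone (adjusted p = 0.0109) and with library sizes alone (0.0367). With library sizes alone Itgad was called as lower too (adjusted p = 0.0372).

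Between the cDC2 classes few of these chains differed by the test. The definitions overlap, since 210 of 565 and 159 of 466 DCIR2 cDC2s also met the CLEC10A rule. With cells that met 1 rule, 1161 genes were called here in place of 681. Of 10 members 1 was called, against 5.57% of all genes: Itgb5 was lower in DCIR2 than in CLEC10A cDC2s, by 2.81 ± 0.47 (adjusted p = 0.000916), from 5 and 11 UMIs against 29 and 54. As Itgb5 passed the filter on low counts only through the sums of macrophages and CLEC10A cDC2s, this call is not independent of the filter. The difference was −2.22 and −3.59 without the DCIR2 library of replicate 1 or 2, and −2.16 without the CLEC10A library of replicate 2. Macrophage markers moved the same way, with a sum over 10 genes of 216 and 219 CPM in DCIR2 and 284 and 350 in CLEC10A cDC2s, against 25171 and 23501 in macrophages, and their part was not tested. Itgb2 stood 0.23 ± 0.12 higher in DCIR2 cDC2s (adjusted p = 0.362), and was called when these classes were fitted alone (adjusted p = 0.0211).

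Macrophages differed from the cDC mean in 9 of 10 members, where 55.1% of all genes were called. Itgad (6.92 ± 0.14, adjusted p = 1.58e-18), Itga9 (6.46 ± 0.18, adjusted p = 1.2e-16) and Itgb5 (6.28 ± 0.20, adjusted p = 2.32e-15) stood over 6 log2 units higher. Itgb5 passed the filter on low counts only through the sums of macrophages and CLEC10A cDC2s. Its call here is thus not independent of the filter, and its levels above are a description. Itgav (0.83 ± 0.13) and Itgb2 (0.59 ± 0.10) were also higher, with adjusted p of 1.27e-05 and 3.95e-05. The other β2 partners were lower: Itgal by 3.01 ± 0.18, Itgax by 2.35 ± 0.13 and Itgam by 1.83 ± 0.24, with adjusted p of 2.65e-11, 3.49e-12 and 1.48e-06. Itgae fell by 1.36 ± 0.47 against the mean (adjusted p = 0.0185), but its 3.03 and 5.06 CPM overlapped both cDC2 classes, and the call was lost by DESeq2 (adjusted p = 0.0644), with these classes fitted alone (0.0571) and without the macrophage library of replicate 1 (0.281) or the DCIR2 or CLEC10A library of replicate 2 (0.115 and 0.0878). Itgb8 was not called (0.08 ± 0.98, adjusted p = 0.961).

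Mature DCs had less Itgb2, Itgal, Itgam and Itgax than the cDC mean, while Itgad was not called. Itgb2 was lower by 1.48 ± 0.12 (adjusted p = 5.94e-09), Itgal by 1.42 ± 0.17 (adjusted p = 2.38e-06), Itgam by 1.08 ± 0.26 (adjusted p = 0.0029) and Itgax by 0.52 ± 0.11 (adjusted p = 0.00125). Itgb8 was higher (3.37 ± 0.80, adjusted p = 0.00326), on the few UMIs given above, and by 4.48 without the CLEC10A library of replicate 1. Of 10 members 5 were called, against 34% of all genes. With the sample as a block, Itgae was called as lower too (adjusted p = 0.0382). Without the mature DC library of replicate 2, the calls of Itgam (adjusted p = 0.243) and Itgax (adjusted p = 0.0822) were lost, and without that of replicate 1 the difference of Itgam was −1.79.

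Mature DCs with a UMI of Il12b, 25 and 44 cells, were lower in these chains than those without, 122 and 143 cells. Itgb2 stood at 73.6 and 45.8 CPM against 232 and 213, Itgax at 201 and 322 against 583 and 497, and Itgal at 13.4 and 15.3 against 69.4 and 52.1. The samples did not overlap for any of these 3 genes. No test was made for this split, and the Il12b+ cells were deeper (median 11724 and 13200.5 UMIs against 9613.5 and 10411).

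pDCs had too few cells for most chains. Of 10 members 2 were called, against 11.1% of all genes, namely Itgav (−1.19 ± 0.33, adjusted p = 0.0214) and Itgb2 (−0.54 ± 0.13, adjusted p = 0.0115). Both calls were lost with library sizes in place of TMM factors (adjusted p = 0.0864 and 0.161). Itgav rested on 13 and 8 UMIs, and was not called without the pDC library of replicate 2 (adjusted p = 0.453), nor Itgb2 without that of replicate 1 (adjusted p = 0.113), where Itgav was at −1.87.

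In B cells, Itgb2 and Itgax were at their lowest level of the 9 classes. Itgax was lower than the cDC mean by 3.81 ± 0.16 (adjusted p = 2.68e-13), Itgam by 2.32 ± 0.36 (adjusted p = 2.92e-05), Itgb2 by 2.15 ± 0.13 (adjusted p = 7.75e-11) and Itgav by 0.64 ± 0.18 (adjusted p = 0.00761), while Itgal differed by −0.40 ± 0.17 (adjusted p = 0.0665). The 4 calls among 10 members stood against 36.4% of all genes. With the sample as a block, Itgal and Itgae were called too (adjusted p = 0.0452 and 0.00785). The difference of Itgam was −2.93 without the B cell library of replicate 1 and −1.54 without that of replicate 2. Itgav lost its call without the B cell library of replicate 1 (adjusted p = 0.111) and with library sizes alone (0.0612).

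T cells had more Itgae (2.17 ± 0.41, adjusted p = 0.000276) and Itgal (0.94 ± 0.15, adjusted p = 3.86e-05) than the cDC mean. They had less Itgam (−3.02 ± 0.45, adjusted p = 1.79e-05), Itgax (−2.89 ± 0.15, adjusted p = 1.11e-11), Itgb2 (−0.52 ± 0.12, adjusted p = 0.00124) and Itgav (−0.57 ± 0.19, adjusted p = 0.0266). With Itgb8 these were 7 of 10 members, against 35.2% of all genes. Itgad was not called (0.73 ± 0.34, adjusted p = 0.103). It was called as higher with library sizes alone (0.0417), with cells within 3 deviations (0.0349) and with raised UMI minimums (0.0152). Itgb8 passed the filter on low counts, about 5.05 CPM, only through the T cell sums, so its call there was set by the filter and its levels above are a description. Without the T cell library of replicate 2, which held 187 of the T cells against 50 in replicate 1, 3 members were called, and Itgae (adjusted p = 0.0537), Itgal (0.143) and Itgav (0.254) were not, while Itgam differed by −4.34. Itgav also lost its call without the T cell library of replicate 1 (0.0595), with library sizes alone (0.146), with RLE factors (0.0617) and with cells within 3 deviations (0.083).

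NK cells had more Itgad (2.22 ± 0.35, adjusted p = 7.69e-05), Itgal (2.17 ± 0.14, adjusted p = 6.26e-10), Itgam (1.88 ± 0.24, adjusted p = 6.35e-06) and Itgb2 (0.67 ± 0.11, adjusted p = 9.72e-05) than the cDC mean, that is, the β2 chain and 3 of its 4 partners. These 4 of 10 members stood against 21.9% of all genes. Itgax differed by −0.28 ± 0.12 (adjusted p = 0.118). With no filter on low counts, Itgax and Itgav were called as lower (adjusted p = 0.0129 and 0.0176). Itgav was also called as lower with raised UMI minimums (0.0199) and with these classes fitted alone (0.0386). DESeq2 called Itga9 as higher (adjusted p = 0.0376), on the few UMIs given above. The share of NK cells with an Itgad UMI was 25.6% (exact binomial interval 13.0% to 42.1%) and 30.6% (16.3% to 48.1%) at median depths of 7737 and 6980 UMIs, against 12.4% and 12% in the deeper cDC1s. Relative to macrophages, NK cells held 3.82% and 6.50% of the Itgad level, while the median over 10 macrophage markers was 0.799% and 0.212% of theirs and the highest marker 11.4% and 0.768%. The part of macrophage RNA in this was not tested.

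**Figure D3:**
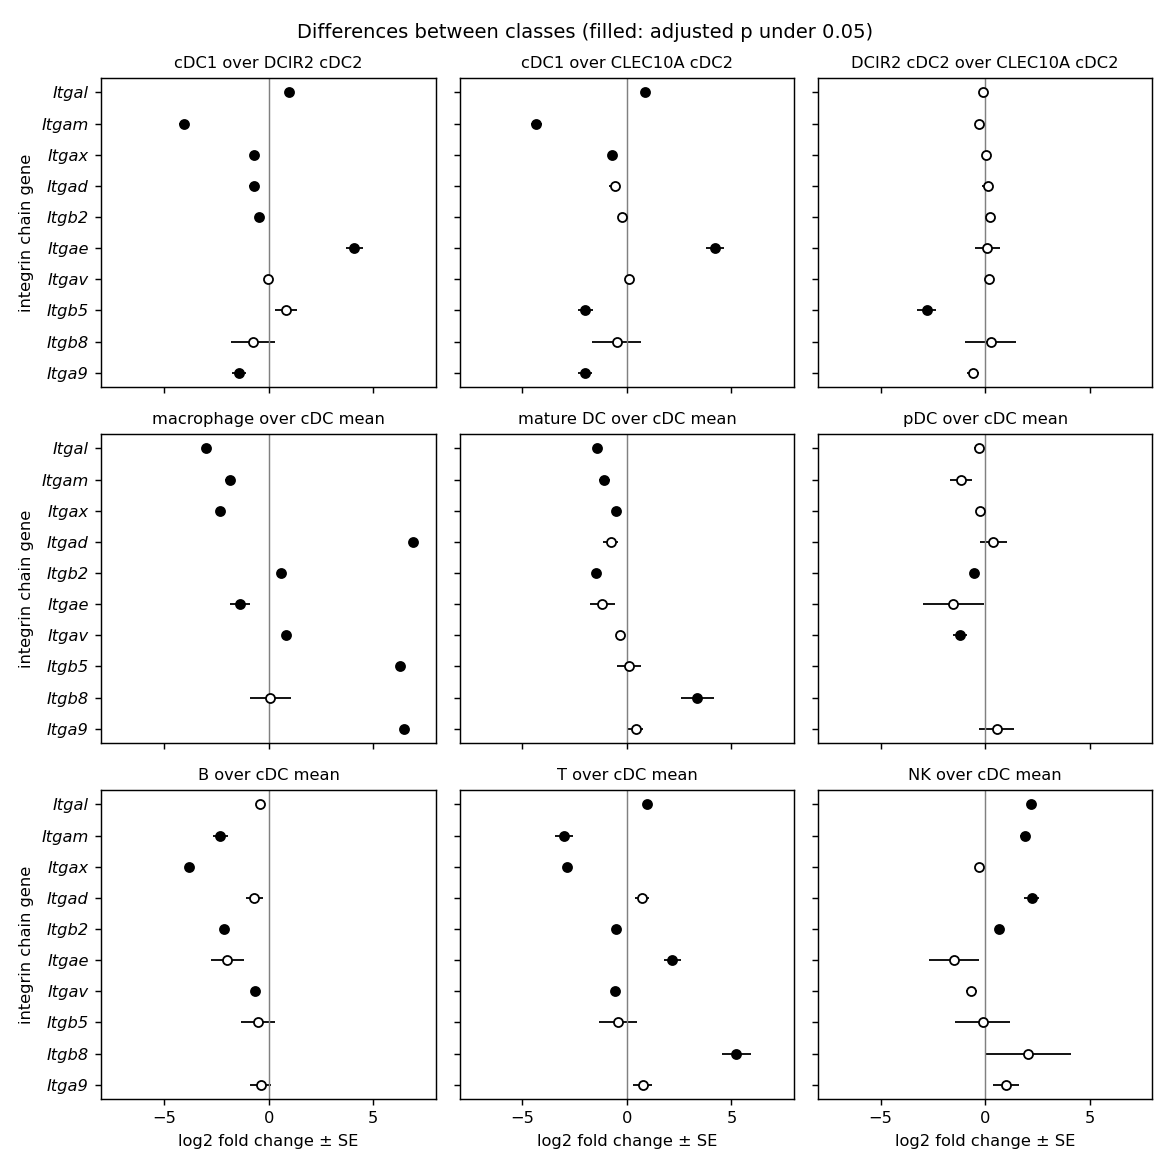
Log2 fold change with its standard error for each member in the 9 comparisons of classes, from sums of 2 samples. Filled points passed an adjusted p of 0.05, and members with 0 UMIs in both samples of the first class are left out. The filled Itgb8 point of T cells was set by the filter on low counts. Itgb5 passed this filter only through the sums of macrophages and CLEC10A cDC2s, so its filled points are not independent of it. Itgad, Itga9 and Itgb5 are over 6 log2 units higher in macrophages, and Itgam and Itgae differ by about 4 between cDC1s and the cDC2 classes.

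Within cDC1s, the study separates Langerin+ cells, which carry Cd207. To sort them for its assays, it used high surface CD103, the product of Itgae, as the marker. Cells with a Cd207 UMI (137 and 154) were set against those without (660 and 556). Itgae stood at 99.9 and 127 CPM against 41.6 and 60.3, a log2 fold change of 1.24 ± 0.18 (adjusted p = 0.0223), the only call among the 9 members tested, where 0.801% of 11607 genes were called. Itgal stood at 223 and 217 against 187 and 184 CPM, Itgb2 at 436 and 475 against 387 and 402, and Itgam at 0.882 and 2.37 against 9.09 and 6.43. Their samples did not overlap either, with log2 fold changes of 0.32 ± 0.06, 0.28 ± 0.06 and −2.12 ± 0.43 and adjusted p of 0.0727, 0.106 and 0.0794. Both groups come from the same samples. With the sample as a block these 3 were called as well (adjusted p = 0.000806, 0.000223 and 0.000589), so 4 members were called. The block also called more of all genes, 542 in place of 93. With at least 2 Cd207 UMIs against 0, Itgae was not called (1.36, adjusted p = 0.0566). Cells with a Cd207 UMI were deeper, with medians of 23588 and 26746 UMIs against 19206.5 and 20588, and the part of depth was not tested.

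Read the other way, the share of cDC1s with a Cd207 UMI was 13.3% and 14.1% in cells with 0 Itgae UMIs, 20.8% and 19.9% with 1 to 3, and 37.8% and 48.4% with 4 or more. The Cd207 level was 22.0 and 16.7 CPM, 23.0 and 25.3, and 35.9 and 68.1 in these groups. In replicate 1 it was thus close between cells with 0 and with 1 to 3 Itgae UMIs. The level of Ccr2, a chemokine receptor, was 90.9 and 95.9 CPM, 44.3 and 56.6, and 9.98 and 19.5 in the same groups. Median depth rose alongside, from 18902 and 19878 UMIs to 27204 and 27481. Thinned to 2000 UMIs per cell, the Cd207 share was 2.88% and 2.48%, 5.36% and 2.21%, and 4.05% and 9.52%, which rests on few cells, and no order is read from it.

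Split by Ccr2 in turn, cDC1s with a Ccr2 UMI (178 and 160 cells) held 25.2 and 33.8 CPM of Itgae, against 62.5 and 90.0 in those without. Itgam went the other way, at 14.9 and 11.1 against 5.05 and 3.79 CPM, and so did Itgb7, at 202 and 198 against 102 and 101. Median depths were close here, 20648.5 and 20304 UMIs against 20122 and 22001.5. No test was made for this split.

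**Figure D4:**
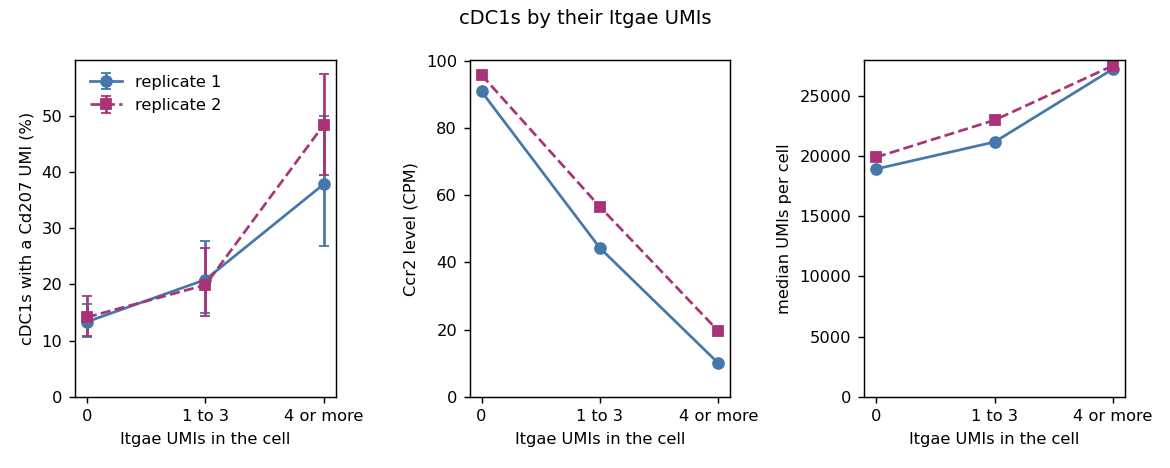
cDC1s grouped by their Itgae UMIs (0, 1 to 3, 4 or more), with the share in percent that held a Cd207 UMI (points, with 95% exact binomial intervals as bars), the Ccr2 level in CPM and the median UMIs per cell, for each replicate. The Cd207 share reaches 37.8% and 48.4% and the Ccr2 level falls to 9.98 and 19.5 CPM, while the depth rises to 27204 and 27481 UMIs.

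For MMMs, the metallophilic macrophages of the marginal zone, the study took cells of its dataset that passed a Siglec1 (CD169) threshold. Here the split was made only within the macrophage class, cells that met the Vcam1 and C1qb minimums, so the sets of cells differ. Cells with a Siglec1 UMI (129 and 73) held Itgad at 1438 and 1270 CPM against 1222 and 1131 in those without, Itga9 at 857 and 772 against 834 and 790, and Itgb5 at 224 and 192 against 197 and 176. None of the 9 members tested was called by edgeR (0 calls, lowest adjusted p = 0.992, and 0 at an unadjusted p under 0.05), where 0.119% of 10111 genes were. DESeq2 also called 0. With the sample as a block 0 were called too, with 2 at an unadjusted p under 0.05, Itgad (0.19 ± 0.06, adjusted p = 0.078) and Itgax (−0.34 ± 0.12, adjusted p = 0.233). For Itgad the difference was 0.20 ± 0.10 on the log2 scale, and its sample values did not overlap, while those of Itga9 and Itgb5 did. Within each sample Itgad, Itgb5, Itgb2, Itgav and Itgam were higher with Siglec1, Itgb2 at 802 against 722 and 737 against 676 CPM. Itgal (11.6 against 19.7 and 13.3 against 16.0 CPM) and Itgax (96.2 against 145 and 130 against 132) were lower in both samples. Itga9 and Itgae went opposite ways in the samples. The sample values of Itgb2, Itgal and Itgax did not overlap either. Cells with a Siglec1 UMI were deeper, with medians of 22087 and 22634 UMIs against 17724 and 17986.5.

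Of the genes that act with these chains, the other integrin chains come first. Of 11 tested, cDC1s had 6 higher and 2 lower than DCIR2 cDC2s, where 33.3% of all genes were called, with Itga8 at 86.6 and 74.4 against 1.49 and 1.94 CPM (5.71 ± 0.36, adjusted p = 1.56e-10) and Itgb3, the other main partner of αv, at 1.62 and 1.67 against 33.6 and 33.2 (−4.15 ± 0.32, adjusted p = 2.58e-09). In macrophages 3 were higher and 5 lower than the cDC mean, against 55.1% of all genes, and Itgb7 was lower by 4.25 ± 0.17 (adjusted p = 3.22e-14). In NK cells 5 were higher and 1 lower, against 21.9% of all genes, led by Itga2 (CD49b), a textbook NK marker, at 221 and 289 CPM (10.09 ± 0.64, adjusted p = 5.77e-10).

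Genes of inside-out activation were called in both directions, and nothing particular to the list is read from their counts. Of 24 tested, macrophages had 9 higher and 7 lower than the cDC mean, where 55.1% of all genes were called, and among them 2 exchange factors of the RASGRP family went opposite ways: Rasgrp2 (CalDAG-GEFI) was higher by 4.04 ± 0.12 (123 and 114 CPM, adjusted p = 1.95e-16) and Rasgrp3 lower by 3.55 ± 0.21 (17.4 and 12.7 CPM, adjusted p = 1.42e-11). In cDC1s Rasgrp3 was higher than in DCIR2 cDC2s (1.28 ± 0.18, adjusted p = 1.14e-05), 3 were higher and 11 lower, against 33.3% of all genes, and Fyb, an adaptor (ADAP) of this route, was lower by 2.12 ± 0.23 (adjusted p = 3.88e-07). In mature DCs 6 were higher and 4 lower, against 34% of all genes, and Tln1, the talin that opens integrins, was lower by 1.00 ± 0.09 (329 and 329.6 CPM, adjusted p = 3.09e-08). In T cells 6 were higher and 9 lower, against 35.2% of all genes, with Skap1, the partner of ADAP in T cells, at 930 and 699 CPM, and Skap2 lower by 2.28 ± 0.13 (adjusted p = 5.18e-11).

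Of the ligands, 14 of the 35 listed were tested. Macrophages had 6 higher and 5 lower, against 55.1% of all genes, with C3, whose fragment is bound by αMβ2 and αXβ2, at 96.5 and 106 CPM (5.80 ± 0.30, adjusted p = 1.23e-11). Mature DCs had 4 higher and 2 lower, against 34% of all genes, with Icam1, the main ligand of αLβ2, at 521 and 442 CPM (1.52 ± 0.12, adjusted p = 3e-09). Nrros, which tethers latent TGF-β and presents it to αvβ8, stood at 283 and 283 CPM in cDC1s against 755 and 783 in DCIR2 cDC2s (−1.27 ± 0.15, adjusted p = 1.35e-06). Plaur was lower in cDC1s than in CLEC10A cDC2s by 4.14 ± 0.29 (7.36 and 5.99 against 108 and 148 CPM, adjusted p = 8.41e-10).

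The genes most like each member over the 18 sums were found by Pearson's r of log2(CPM + 10), as a description over sums that share libraries and depth. For Itgb2 the nearest gene was Tln1 (r = 0.952), followed by Rab1b (0.847) and Chmp4b (0.846). For Itgax they were Kcnip3 (0.957), Sulf2 (0.942) and Kit (0.928), for Itgal Elovl6 (0.918), Xrn2 (0.914) and Agap2 (0.910), and for Itgam 2900026A02Rik (0.920), Klri2 (0.899) and Ccl3 (0.843). The macrophage chains had the highest values: Itgad with Prkar1b (0.983) and Il18bp (0.964), Itgb5 with Lilra5, Lpl and Fam213b (each 0.988) and Itga9 with Glis3 (0.979), Ccdc148 (0.971) and Dlc1 (0.971). Itgae was nearest to Slco3a1 (0.889), Nup210l (0.819) and Fkbp1a (0.814), Itgav to Abcg3 (0.908), D5Ertd579e (0.891) and Smim19 (0.878), and Itgb8 to Hdgfl3 (0.898), Themis (0.889) and Cd3e (0.877), which the T cell rule uses. Among the members themselves, Itgb5 and Itga9 (0.941), Itgad and Itgb5 (0.926) and Itgad and Itga9 (0.887) were the most alike, and Itgal and Itgb5 the least (−0.646).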

How the data were processed

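The data were single-cell RNA counts of CD11c-enriched spleen cells, 2 samples of 1 group. The deposited tables hold UMI counts, with no normalization, made by the authors with the BD Rhapsody WTA Analysis Pipeline 1.12.1 against GRCm38 (PhiX added) and the GENCODE vM19 annotation, with intronic reads counted and UMIs corrected by RSEC, per the file headers. The run's sample tags also list other samples, not analysed here. The submitters' processing notes name R 4.2.3 and Seurat 4.3.0.1. Both tables held 27032 genes, with 46953398 and 43137746 UMIs in 3308 and 3085 cells.

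Members, class rule and gene lists were chosen with earlier results of these data known. Cells were classed as described, doublets were not removed, and 663 cells met more than 1 rule, which an alternative left out. Levels are counts per 1e6 UMIs of a class (CPM), shares of cells carry 95% exact (Clopper-Pearson) intervals, a count of 0 allows up to 3 counts, and thinning drew 2000 UMIs per cell. Intervals and limits cover counting error only. UMIs were summed per sample and class and fitted for all 9 classes in edgeR 4.0.16 (R 4.3.3; filterByExpr, TMM, glmQLFit, glmQLFTest), with p-values adjusted by Benjamini-Hochberg over every gene tested, and the 14 genes of the class rule left out. The Cd207 and Siglec1 splits had fits of their own over 4 sums. DESeq2 1.42.0 was an alternative. The fits were tested on simulated counts. Python 3.11.15, numpy 2.4.6, pandas 2.3.3, scipy 1.17.1 and matplotlib 3.10.9 were used.

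Both classes of a comparison come from the same samples, so the samples pair by design. The deviations of same-numbered sums from class means had a correlation of −0.0461 to 0.140 (median 0.0344) over 36 pairs of classes, 0.0947 in the Cd207 split and 0.162 in the Siglec1 split. Blocked values are given where they change a call.

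All 10 members were named. From lists of 17 other integrin chains, 28 activators and 35 ligands, the rule named for each comparison the 2 genes with the largest change in each direction among those called with at least 50 CPM in both samples of the higher group, of which a selection is given, and any called integrin chain could be named. Genes alike were the 3 with the highest correlation among those with at least 50 CPM in both samples of a class, of which 1 is not reported here.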

Additional observations from a re-analysis of the deposited data

Results flagged for a closer look

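Cells that met no class, 770 and 701, took no part in the comparisons, and 9 of the 10 members had more than 3 UMIs in them in both samples, the limit that a count of 0 allows. Their mean levels were 755 CPM for Itgax, 551 for Itgb2, 125 for Itgal, 111 for Itgam, 98.2 for Itgav, 36.8 for Itga9, 21.6 for Itgad, 7.83 for Itgb5 and 6.87 for Itgae. Itgad was 30.1 and 13.1 CPM in replicates 1 and 2, and Itgam 106 and 117. In these cells the summed CLEC10A cDC2 markers stood at 1898 and 2972 CPM and 5 neutrophil markers at 176 and 1447, and what the cells are was not tested. With 2 samples per class, no sample could be set apart from the others of its group by a test.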

How the results depend on the processing

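Of the 46 member differences called, no alternative turned the direction (0 of 811 values). Apart from the libraries left out in the report, some folds moved by over 1.5 times on the linear scale, and they are given here as log2 values. They did so with cells that met 1 rule for Itgam (−4.77 and −5.09 in cDC1s against DCIR2 and CLEC10A cDC2s, −3.19 in B cells) and for Itgal and Itgae in macrophages (−3.90 and −2.35), within 3 deviations for Itgal, Itgam and Itgae in macrophages (−3.59, −2.62 and −2.22), and with raised UMI minimums for Itgav in pDCs (−2.06) and Itgam in T cells (−2.14). With the whole of replicate 1 left out, Itgae in T cells was 1.58 and Itgb8 5.91. With the whole of replicate 2 left out, they were 3.13 and 3.31, and Itgam was −4.41 in T cells and −1.66 in B cells. Itgae was then −0.72 in macrophages, and 5.35 and 4.79 in cDC1s against DCIR2 and CLEC10A cDC2s. Itgb5 was then −1.29 in cDC1s against CLEC10A cDC2s. The count of members called moved by over 1.5 times in 5 comparisons. Between the cDC2 classes 1 became 2 with these classes fitted alone. For mature DCs 5 became 8 with no filter on low counts (3 to 6 with a library left out). For pDCs 2 became 0 with library sizes alone and 1 with cells that met 1 rule (1 to 2 with a library left out), and for T cells 7 became 3 to 7. In the Cd207 split 1 became 4 with no filter or with the replicate block and 0 with at least 2 UMIs (1 to 2 with a library left out). The replicate block moved no other count of members by over 1.5 times. Leaving out a library gave 5 to 6 for cDC1s against DCIR2 cDC2s, 6 against CLEC10A cDC2s, 8 to 9 for macrophages, 4 to 5 for B and for NK cells and 0 for the Siglec1 split.

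Counts over all genes moved by over 1.5 times as follows. With classes fitted alone, 3754 became 5639 (cDC1s against CLEC10A cDC2s) and 681 became 1784 (the cDC2 classes). For the latter, no filter gave 1068, cells that met 1 rule 1161, the block 1034 and a library left out 246 to 398. For pDCs 1356 became 847 with cells that met 1 rule. The Cd207 split went from 93 to 460 without a filter, 52 with cells that met 1 rule, 48 with 2 UMIs and 542 with the block, and the Siglec1 split from 12 to 145, 5, 2 and 152, with 2 within 3 deviations and 22 by DESeq2. A library left out lowered 4071 to 2696, 3754 to 2483, 4148 to 2659, 1356 to 511, 4446 to 2704 and 4303 to 2233 at most (each time without replicate 2 of the class named first, cDC1s, cDC1s, mature DCs, pDCs, B and T cells), and gave 56 to 211 and 55 to 99 in the splits.

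Library sizes alone moved the median of all genes by up to 0.30 (log2) and the share of higher calls by over 10 percentage points in 8 of 11 comparisons, by up to 26.6 points, in NK cells for example (1237 higher and 1444 lower by TMM, 1880 and 785 without). RLE factors moved the median by up to 0.14. The cause of these changes was not tested. The small classes limit depth: pDCs held 192317 and 283963 UMIs in all. Class and sample are the only factors, the 2 samples come from 1 run, and levels are RNA, not surface protein.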
